A study of Bos taurus with 6 samples.

Results

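The forkhead family was read out in bovine deep zone articular chondrocytes, the cartilage cells nearest to the bone, with and without induced expression of CREB5, a CREB-related bZIP transcription factor. Members were all genes of the authors' table whose symbol is FOX followed by 1 letter and digits. There were 41 of them among 27607 genes, from 19 lettered classes. Of the 41 genes, 21 had a mean of at least 10 normalized counts and were tested with 13180 genes in all, 11 had reads below that level and 9 had no read in any library.

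All cells of both groups had been infected with a lentivirus carrying doxycycline-inducible bovine CREB5, put through 11 days of G418 (500 µg/ml), and then held on low attachment plates for 3 days. The medium contained 10% FBS, 20 ng/ml of TGFb2 and 100 ng/ml of TGFa. The Dox- group (3 libraries) received no doxycycline and the Dox+ group (3 libraries) received it at 1 µg/ml. The knees, 3 in all, were collected independently, and the titles number each group 1 to 3; values listed for a group below run in that order. Whether each number is 1 knee is not stated, so p-values measure the spread between these libraries. The labels give neither age nor sex of the animals. A group that received doxycycline without the CREB5 construct was not analysed here.

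Forkhead proteins are transcription factors that share a winged-helix DNA-binding domain and fall into lettered classes. The FOXO class is held out of the nucleus by AKT when growth factors signal. When nuclear, it drives genes of stress resistance, autophagy and cell cycle arrest. In mouse cartilage the FOXO factors as a group are needed for joint maintenance and for lubricin. FOXC and FOXF genes are known from embryonic mesenchyme and the skeleton, FOXP1, FOXP2 and FOXP4 from endochondral bone growth in mice, and FOXM1 from the genes of mitosis.

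The libraries held 20063379 to 122366790 reads, and a floor of 3 reads was worth 1.32 to 6.98 normalized counts, a limit that covers counting error only. CREB5 itself was 308 to 510 normalized counts in the Dox- libraries and 12413 to 21964 in the Dox+ libraries, so each library stood on the side of its label. Chondrocyte markers were present, with a summed level over 12 genes of 156730 to 310966 in Dox- and 103119 to 121757 in Dox+ libraries, among them COL2A1, ACAN and SOX9. By limma 2 of the 10 tested were lower in Dox+ cells (0.357% of all tested genes were) and 5 were with the library number as a block (1.65%), with a list median of -1.53 on the log2 scale beside -0.0036 over all tested genes. Of the 10 endothelial markers, ESAM and CLDN5 had no read and the sum was 136 to 297 in Dox- and 165 to 231 in Dox+ libraries. Of the 11 leukocyte markers, ITGAM and CD4 had no read and the sum was 387 to 652 in Dox- and 523 to 856 in Dox+. The sum over 8 markers of smooth muscle cells and pericytes was 24162 to 31893 and 19809 to 26360, that over 10 ciliated and epithelial markers was 317 to 527 and 226 to 401, with KRT5 at 0, and that over 8 synovial fibroblast markers, which include PRG4, was 118687 to 161935 and 354899 to 684327. PRG4 alone was 571 to 1705 in Dox- and 253217 to 565979 in Dox+ libraries. The rise of the synovial sum came from PRG4, and that list's median log2 fold change was -0.21. Of these last lists limma called 1 smooth muscle marker and 1 synovial marker higher (2.52% of all tested genes) and 0 ciliated ones. With the block it called 2 higher and 1 lower, 2 higher and 2 lower, and 0 higher and 2 lower, in that order (4.86% and 1.65% of all tested genes). Only 3 endothelial and 4 leukocyte markers had a mean high enough to be tested, and none of these was called in either fit. What these marker levels contribute to the results below was not tested. FN1 held 7.23% to 10.4% of the counts. In bulk RNA, fewer cells of a type and less RNA per cell cannot be told apart.

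No forkhead gene passed the test for a change with CREB5 induction. At an adjusted p under 0.05 limma called 0 of the 21 tested members, against 2.88% of all 13180 tested genes, 2.52% higher and 0.357% lower. At an unadjusted p under 0.05 it took in 1 member, FOXP4, against 10.6% of all genes. On the recovered reads, edgeR and DESeq2 also called 0 of 21 (edgeR 2.6% of all genes, 2.31% higher and 0.296% lower; DESeq2 5.32%, 4.11% higher and 1.21% lower), each with 1 member at an unadjusted p under 0.05. Deviations of same-numbered libraries from their group means correlated at 0.65, 0.44 and 0.21 for numbers 1, 2 and 3. Dox- 3 with Dox+ 2 gave 0.18, so the pairing of number 3 is only weakly shown. The fit with the number as a block was also made. With the block limma and edgeR again called 0, each with 2 members at an unadjusted p under 0.05. That level took in 16.2% of all genes in limma with the block, and the share was not counted for edgeR or DESeq2. In that fit limma called 6.51% of all genes, 4.86% higher and 1.65% lower, and edgeR called 5.93%, 4.48% higher and 1.44% lower. DESeq2 with the block called 1 member, FOXF1, higher, beside 7.96% of all genes, 5.64% higher and 2.32% lower.

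The members' log2 fold changes, on the scale of log2(normalized count + 1), ranged from -0.93 (FOXO6) to 0.88 (FOXF1). Of the 21, 9 were above 0 and 12 were below, with a median of -0.04, beside a median of -0.0036 over all tested genes. The median size of the change, sign left out, was 0.20 for the members and 0.24 for all tested genes. The 95% limma interval stayed within a log2 change of 1 in either direction for 9 of the 21 members, and for 13 with the block; for the others it reached beyond that size. A p that misses the threshold does not show that the levels were equal.

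**Figure D1:**
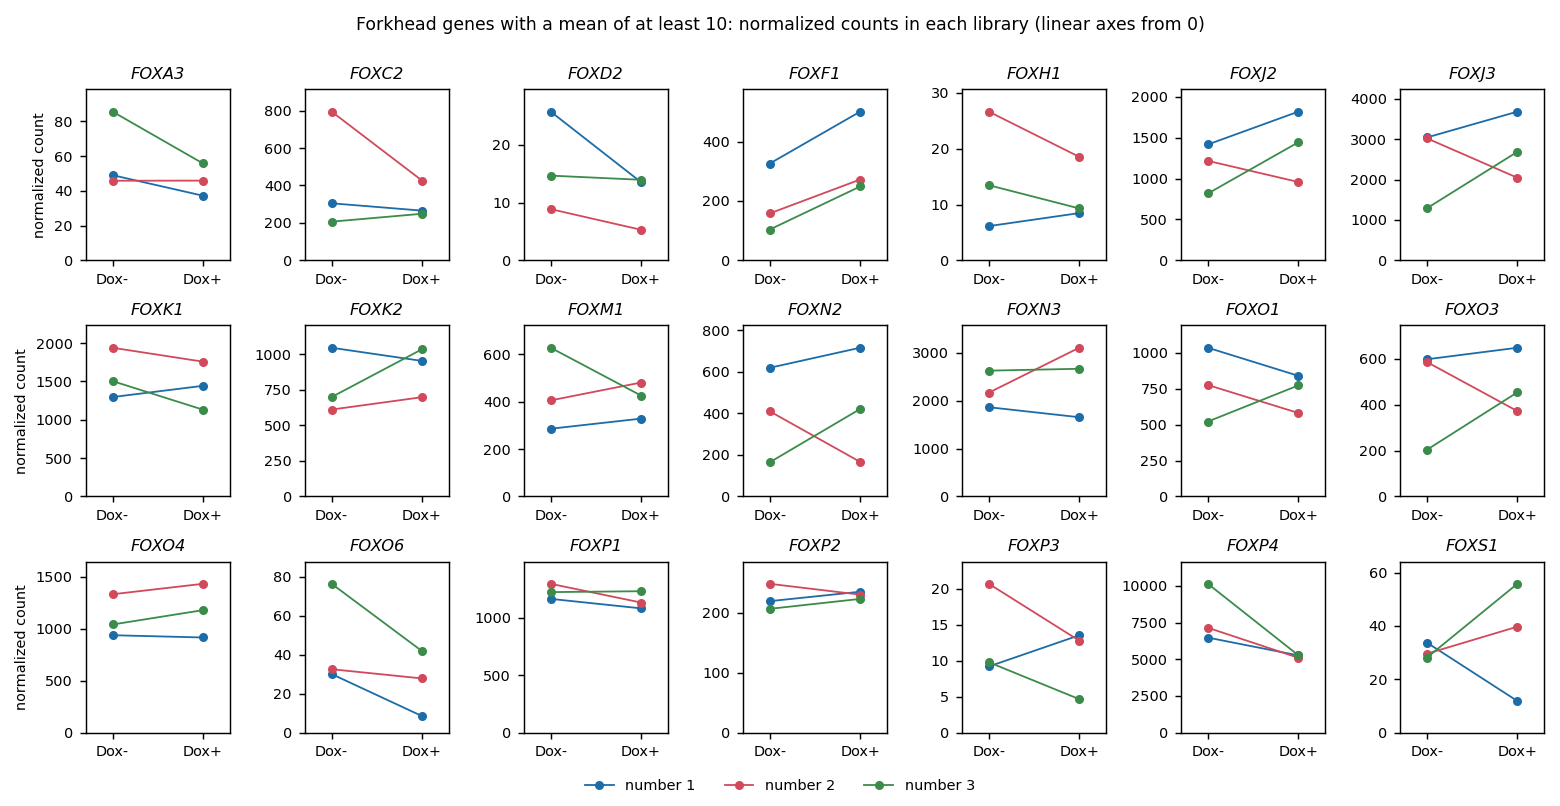
Normalized counts (linear axes from 0) of the 21 tested forkhead genes in each library, Dox- on the left and Dox+ on the right of each panel; a line joins the libraries of 1 number. FOXF1 goes up and FOXP4 goes down in all 3 numbers, while lines of FOXJ2, FOXJ3, FOXN2 and FOXO3 go up in numbers 1 and 3 and down in number 2.

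FOXF1 (ENSBTAG00000000009), a factor of lateral plate mesenchyme and a known target of hedgehog signals, had 326, 158 and 104 normalized counts without doxycycline (Dox- 1, 2 and 3) and 501, 272 and 249 with it (Dox+ 1, 2 and 3). Each Dox+ library was above the Dox- library of its number, by 1.54-, 1.72- and 2.39-fold, but Dox- 1 lay above Dox+ 2 and Dox+ 3, so the groups overlapped. Means were 196 ± 116 and 341 ± 139 (SD, n = 3). The log2 difference was 0.88 (SE 0.46, 95% interval -0.15 to 1.92), with a limma adjusted p of 0.60. With the block the interval was 0.31 to 1.45 and the limma adjusted p was 0.082; edgeR with the block gave an adjusted p of 0.10 and DESeq2 with the block 0.041. The authors' deposited table lists FOXF1 with a log2 fold change of 0.72 (SE 0.31) and an adjusted p of 0.0497, and in that table it was the only 1 of the 26 members with an adjusted p that was under 0.05, beside 7.3% of all genes with one (5.24% higher). Without the block no tool called it, and whether the authors' fit held a term for the number is not stated. With 1 library left out, the log2 fold change was between 0.51 (without Dox- 3) and 1.33 (without Dox- 1).

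In RefSeq's gene order of ARS-UCD2.0, another assembly than the files' ARS-UCD1.2, so that no coordinates are given, FOXF1 stands next to MTHFSD, FOXC2 and FOXL1, with COX4I1 and IRF8 on its other side. FOXC2 (ENSBTAG00000012465), known from mesenchyme and lymphatic vessels, was 305, 794 and 207 without and 266, 426 and 249 with doxycycline. It was highest in number 2 of either group, and the groups overlapped (a log2 change of -0.28, interval -1.36 to 0.81, limma adjusted p = 0.92). FOXL1, known from the gut mesenchyme, had 28 reads over the 6 libraries, 12 of them in the Dox- and 16 in the Dox+ libraries, and was below the filter. Among the genes beside them, MTHFSD had a log2 fold change of -1.19 (limma adjusted p = 0.14) and COX4I1 of -0.10 (adjusted p = 0.94), while IRF8 was below the filter. Of the genes in this stretch that were tested, FOXF1, FOXC2, MTHFSD and COX4I1, none passed in limma, with or without the block.

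FOXP4 (ENSBTAG00000014211), which with FOXP1 and FOXP2 acts in endochondral bone growth in mice, had 6471, 7144 and 10138 normalized counts without doxycycline and 5258, 5097 and 5272 with it. All 3 Dox+ libraries lay below all 3 Dox- libraries, and the Dox+ values were close together while Dox- 3 stood above the other two. It was the 1 member of 21 whose groups did not overlap; 15.2% of all tested genes had groups that did not, 8.88% higher and 6.29% lower. Means were 7917 ± 1952 and 5209 ± 96.9 (SD, n = 3), with a log2 fold change of -0.58 (SE 0.20, interval -1.03 to -0.12, limma adjusted p = 0.28). With the block the limma adjusted p was 0.12, edgeR gave 0.14 and DESeq2 0.083, so it did not pass in any fit, and over all alternatives the adjusted p was 0.083 to 0.65. Without Dox- 3 the log2 fold change was -0.38. The authors' deposited table gives it a log2 fold change of -0.49 (SE 0.22) and an adjusted p of 0.094.

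FOXP1 (ENSBTAG00000016533) stood at 1166, 1297 and 1225 without and at 1083, 1134 and 1232 with doxycycline. The 6 values were close together and the groups overlapped, which gave the narrowest interval of the family, -0.50 to 0.30 around a log2 fold change of -0.10 (SE 0.18, limma adjusted p = 0.92). FOXP2 (ENSBTAG00000011246) was also even, with 220, 248 and 207 in uninduced and 235, 230 and 223 in induced cells (log2 fold change 0.03, interval -0.53 to 0.60, limma adjusted p = 0.98). FOXP3, the factor of regulatory T cells, had 9.20, 20.7 and 9.78 without and 13.5, 12.8 and 4.65 with doxycycline, of which the last is under that library's floor of 6.98. Its change was -0.36 on the log2 scale, with an interval of -1.93 to 1.21.

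Scaling between libraries cancels in a ratio of genes of the same library, apart from the 1 added to each count, which matters at low counts. Within the classes 9 ratios were formed, each member against the one of its class with the highest mean. The log2 ratio of FOXP2 to FOXP4 was -5.11 ± 0.43 in Dox- and -4.50 ± 0.05 in Dox+ libraries (SD, n = 3), a difference of 0.61, with all Dox+ values above all Dox- values (two-sided exact permutation p = 0.1, the smallest that 3 against 3 allow; adjusted p = 0.45 over the 9 ratios). That of FOXP1 to FOXP4 differed by 0.48 in the same way (exact permutation p = 0.1, adjusted p = 0.45). Both share FOXP4 and are not independent. The groups overlapped for the other 7 ratios, whose differences lay between -1.01 (FOXO6 to FOXO4) and 0.34 (FOXK2 to FOXK1), with exact permutation p between 0.3 and 1. The ratios are of counts, not of levels per length, so only their differences between groups are meaningful.

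The FOXO class was measured in full. FOXO1 (ENSBTAG00000044105) had 1034, 775 and 521 normalized counts without and 839, 581 and 772 with doxycycline. The groups overlapped, with means of 777 ± 257 and 731 ± 134 (SD, n = 3) and a log2 fold change of -0.05 (SE 0.29, interval -0.71 to 0.61, limma adjusted p = 0.98). FOXO3 (ENSBTAG00000011234) was 598, 586 and 204 in uninduced and 648, 372 and 453 in induced cells. Dox- 3 was the low library, and the pairs went both ways, 1.08-, 0.64- and 2.23-fold (log2 fold change 0.20, interval -0.78 to 1.19, limma adjusted p = 0.93). FOXO4 (ENSBTAG00000004879) was 936, 1330 and 1039 without and 914, 1430 and 1177 with doxycycline. Its order over the numbers was the same in both groups, number 2 highest and number 1 lowest, and its interval was -0.45 to 0.62 (limma adjusted p = 0.96). FOXO6, best known from the brain, was 30.0, 32.5 and 76.4 in uninduced and 8.46, 27.8 and 41.9 in induced cells. It was lower in each pair while the groups overlapped, and its log2 fold change of -0.93 (SE 0.67, interval -2.46 to 0.60) had a limma adjusted p of 0.78, and of 0.37 with the block.

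**Figure D2:**
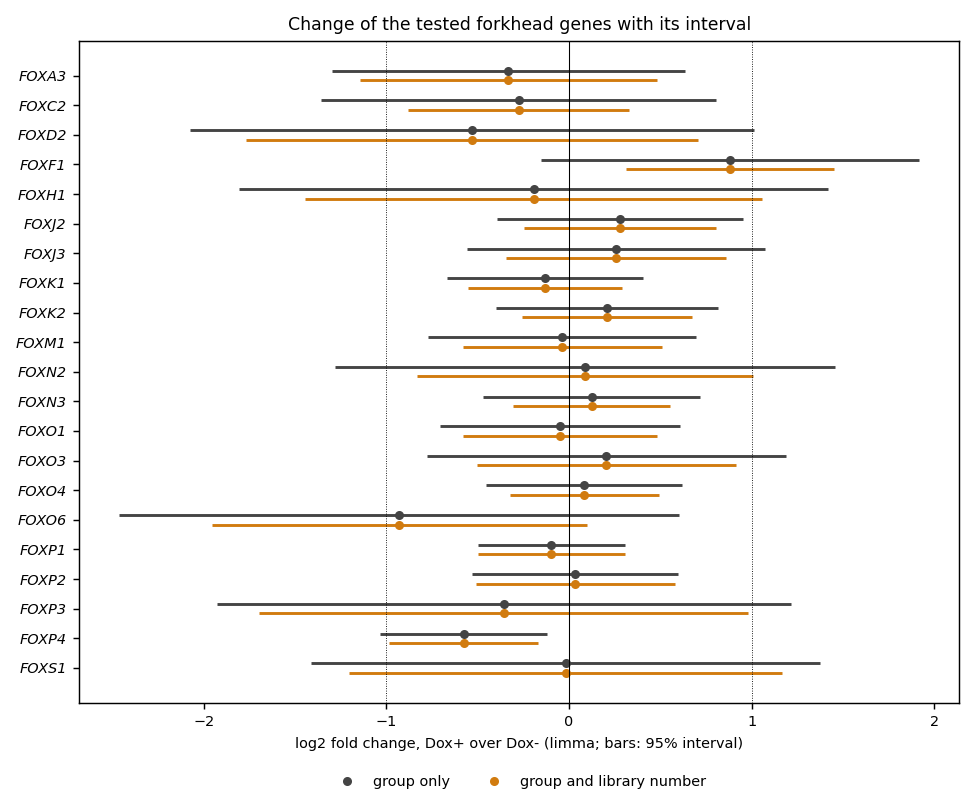
log2 fold change of Dox+ over Dox- for each tested forkhead gene (points) with its 95% limma interval (bars), from the fit with group only and from the fit with group and library number; dotted lines mark -1 and 1. Intervals that leave out 0 belong to FOXP4 in both fits and to FOXF1 in the fit with library number.

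FOXM1 (ENSBTAG00000015875), which drives genes of the G2 phase and mitosis, was 286, 405 and 627 without and 328, 481 and 426 with doxycycline. The groups overlapped with means of 439 ± 173 and 411 ± 77.1 (SD, n = 3), and the log2 fold change was -0.04 (SE 0.32, interval -0.77 to 0.70, limma adjusted p = 0.99). FOXN3, a repressor known from the DNA damage checkpoint, was 1864, 2168 and 2628 in uninduced and 1655, 3107 and 2667 in induced cells. It was lowest in number 1 of both groups (interval -0.47 to 0.72). FOXK1 and FOXK2, which repress autophagy genes and promote glycolysis, had log2 fold changes of -0.13 (interval -0.67 to 0.40) and 0.21 (interval -0.40 to 0.81), with limma adjusted p of 0.92 and 0.89.

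FOXJ2 was 1418, 1217 and 818 without and 1819, 959 and 1444 with doxycycline. FOXJ3, which activates Mef2c in mouse muscle, was 3043, 3020 and 1290 in uninduced and 3681, 2045 and 2686 in induced cells. FOXN2 was 619, 410 and 165 in uninduced and 716, 166 and 421 in induced cells. In all of these genes, as in FOXO3, the lowest Dox- library was number 3 and the lowest Dox+ library was number 2, and pair 2 went down while pairs 1 and 3 went up. FOXN2 had the widest swing, with 1.16-, 0.41- and 2.56-fold in pairs 1, 2 and 3, and an interval of -1.28 to 1.46. The limma adjusted p of FOXJ2, FOXJ3 and FOXN2 were 0.87, 0.90 and 0.98. Whether these genes share the pattern beyond chance was not tested.

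Of the remaining tested members, FOXA3, a liver pioneer factor, was 45.8 to 85.6 in the Dox- and 37.2 to 55.8 in the Dox+ libraries. FOXD2 was 8.87 to 25.8 and 5.30 to 14.0 and was lower in each pair. FOXH1, a partner of SMAD proteins in activin and nodal signalling, was 6.13 to 26.6 and 8.46 to 18.5. FOXS1 was 28.1 to 33.7 in Dox- libraries and spread from 11.8 to 55.8 in Dox+ libraries. The groups overlapped in each of the 4 genes, with limma adjusted p between 0.89 and 1.00. Over the 21 tested members, all 3 pairs went the same way in 4 (FOXF1 higher, FOXD2, FOXO6 and FOXP4 lower), while 38.5% of all tested genes had 3 pairs in 1 direction.

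The number of a library accounted for more of the members' variation than the group did. Splitting the sum of squares of log2(normalized count + 1) over the 6 libraries, the median share was 62.2% for the number and 6.56% for the group over the 21 members, and 49.3% and 15.3% over all tested genes; the number has 2 degrees of freedom and the group 1. The number's share was above the group's in 20 of 21 members, FOXP4 being the exception with 16.9% and 68.1%, and in 72.1% of all tested genes. FOXO4 (93.8%), FOXH1 (87.5%) and FOXC2 (81.4%) had the largest shares for the number, and FOXF1 had 59.4% for the number and 37.1% for the group. In a limma F test of the number, 0 of 21 members passed (2.41% of all genes did), and 4 members, FOXC2, FOXF1, FOXN2 and FOXO6, had an unadjusted p under 0.05, with limma adjusted p from 0.11 (FOXF1) to 0.24 (FOXN2). The share of all genes under that unadjusted p was not counted, so these 4 members cannot be set against it. What the number stands for beyond a label shared by 2 libraries is not stated in the labels. No comparison of the members with other genes was tested here.

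**Figure D3:**
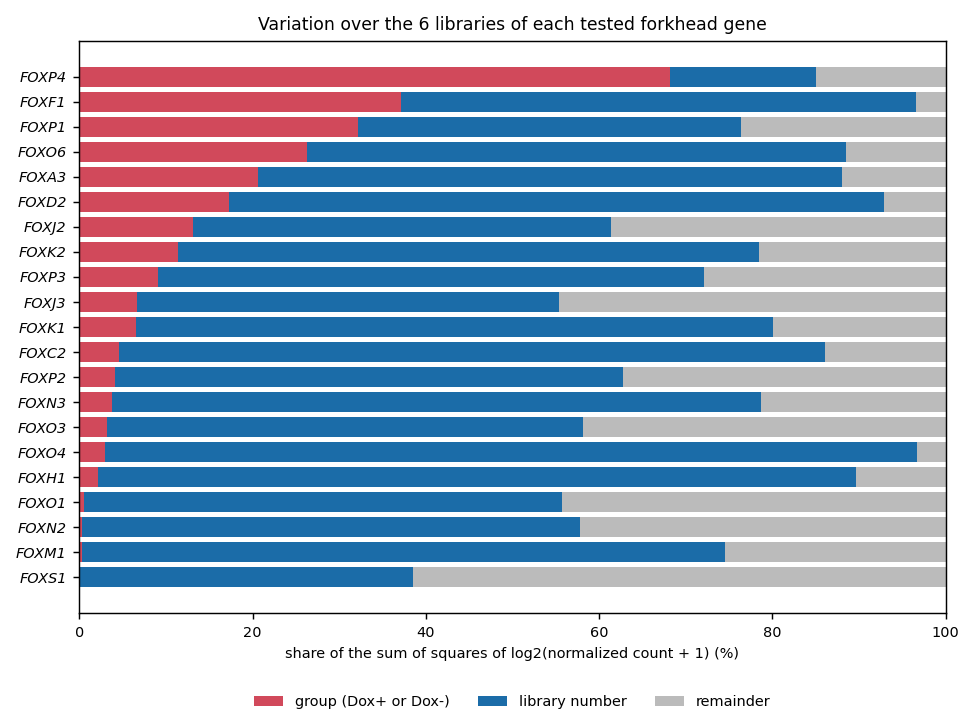
Share (%) of the sum of squares of log2(normalized count + 1) over the 6 libraries that goes with the group, with the library number and with neither, for each tested forkhead gene. FOXP4 has the largest group share (68.1%), and the number's share is larger than the group's in the other 20 genes.

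Below the filter, FOXN1, the factor of thymic epithelium and hair follicles, had 2, 8 and 16 reads in the uninduced libraries and none in any induced one. In normalized counts that is 1.23, 11.8 and 9.78 against 0, where the first value is under that library's own floor of 1.84. With the floor of 3 reads taken for every Dox+ library, the Dox- mean of 7.61 was 1.71-fold the mean Dox+ floor of 4.46. That ratio does not cover the spread of the Dox- libraries (SD 5.63) or their counting error. With no filter limma gave an adjusted p of 0.12 (unadjusted p = 0.0039), and the authors' deposited table gives an adjusted p of 0.27. Of 4473 genes with reads and a mean under 10, 22 had reads in all Dox- libraries and none in the Dox+ libraries (0.492%). The reverse, reads in all Dox+ and in no Dox- library, held for 2.01% of them and for 0 forkhead genes.

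FOXA1, a pioneer factor of endoderm and hormone-responsive epithelia, had 2, 0 and 0 reads without and 1, 6 and 7 reads with doxycycline, with an adjusted p of 0.34 in limma without a filter. FOXA2, which acts in hypertrophic chondrocytes in mice, had 15, 0 and 14 reads without and 9, 4 and 0 with doxycycline. Both groups had a library at 0 and no direction can be read from it. FOXE1, FOXE3, FOXF2, FOXJ1, FOXL1, FOXL2 and FOXQ1 were also below the filter, with 2 (FOXQ1) to 28 (FOXL1) reads over the 6 libraries. FOXJ1, the regulator of motile cilia, had 4, 3 and 0 reads without and 0, 1 and 1 with doxycycline. FOXB1, FOXB2, FOXD3, FOXI1, FOXI2, FOXI3, FOXN4, FOXR1 and FOXR2 had no read, which allows a level of up to 1.32 normalized counts in the deepest and 6.98 in the shallowest library. FOXC1, FOXD1, FOXD4 and FOXL3 were not analysed here.

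Genes around the FOXO proteins did change in places while the FOXO genes did not pass. Of 30 tested genes that act upstream of FOXO, 2 rose and 0 fell (2.52% and 0.357% of all tested genes did), with a list median of 0.12 on the log2 scale. SGK1, a kinase that phosphorylates FOXO proteins, had 1704, 1383 and 1612 normalized counts without and 5625, 7050 and 6251 with doxycycline. The groups were far apart, and it rose 4.02-fold (limma adjusted p = 0.00044, SE 0.18 on the log2 scale) and passed with each library left out. TRIB1, a pseudokinase, was 1034, 333 and 903 in uninduced and 3261, 2447 and 3767 in induced cells and rose 4.58-fold (limma adjusted p = 0.022); leaving out library Dox+ 1 or Dox+ 3 gave 0.081 or 0.14. PIK3R1, a regulatory subunit of PI3 kinase, was 461 ± 101 and 850 ± 75.8 (limma adjusted p = 0.11; the block gave 0.045, as one of 3 then higher). TRIB2, which restrains FOXO proteins, and PIK3CD, a catalytic PI3 kinase subunit, had log2 fold changes of -0.67 and -0.96 (limma adjusted p = 0.32 and 0.49; 0.074 and 0.15 under the block). DESeq2 with the block called TRIB2 lower, and limma with the block called both lower when the libraries numbered 2 were left out. By limma on all libraries, the other 25 did not pass.

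Of 34 genes known as FOXO targets, 2 rose and 0 fell (2.52% and 0.357% of all tested genes did), with a list median of -0.04. PPARGC1A, a coactivator of mitochondrial genes, was 43.5, 8.87 and 12.8 without and 103, 173 and 242 with doxycycline. It rose 8.99-fold (limma adjusted p = 0.029, SE 0.62 on the log2 scale). The limma call was lost on leaving out Dox- 2 (adjusted p = 0.089), Dox- 3 (0.11), Dox+ 1 (0.054), Dox+ 2 (0.081) or Dox+ 3 (0.18). Of the other tools, edgeR called it only with the block and DESeq2 called it in both forms; limma with the block gave an adjusted p of 0.0074. TRIB1 stands in this list too. CITED2, a coregulator known from cartilage, was 3085 ± 667 and 5692 ± 979 (limma adjusted p = 0.089; 0.019 under the block). SELENOP, a selenium carrier, was 198 ± 54.9 and 567 ± 341 (limma adjusted p = 0.23; 0.034 under the block). SESN3, a stress-induced sestrin, was 272 ± 144 and 95.9 ± 26.6 (limma adjusted p = 0.33; 0.10 under the block). DESeq2 called it lower with and without the block, as did limma without Dox- 3 (adjusted p = 0.043). SOD2, the mitochondrial superoxide dismutase, named after its values were seen, was 4507 ± 2319 and 2297 ± 895, lower in each pair (limma adjusted p = 0.47; 0.0092 under the block). In that fit 4 targets were higher and 1 was lower (4.86% and 1.65% of all tested genes).

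No FOXM1 target passed the test. Of 27 tested targets, limma, edgeR and DESeq2 each called 0, with or without the block, and 0 had an unadjusted p under 0.05. Over all tested genes limma called 2.88%, or 6.51% with the block, and without the block 10.6% had an unadjusted p under 0.05. The list's median was 0.04. Those with the smallest p were SKP2, a ubiquitin ligase subunit (log2 fold change 0.62, limma adjusted p = 0.59), the kinesin KIF23 (0.34, adjusted p = 0.63) and the kinase NEK2 (0.39, adjusted p = 0.66). SKP2 is also on the list of genes upstream of FOXO. Of 33 tested cofactors of forkhead proteins, limma, edgeR and DESeq2 called 0 (limma called 2.88% of all tested genes). In each, 2 had an unadjusted p under 0.05 (10.6% of all tested genes in limma), and the median was 0.02. NFATC1, a calcium-regulated factor of articular progenitors in mice, was 4190 ± 1332 and 2555 ± 604 and lower in each pair (limma adjusted p = 0.35; 0.035 under the block). TLE5, of the Groucho corepressor family, had a log2 fold change of -0.41 (limma adjusted p = 0.49). The lists were described by count and median, with no test of a list as a whole.

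**Figure D4:**
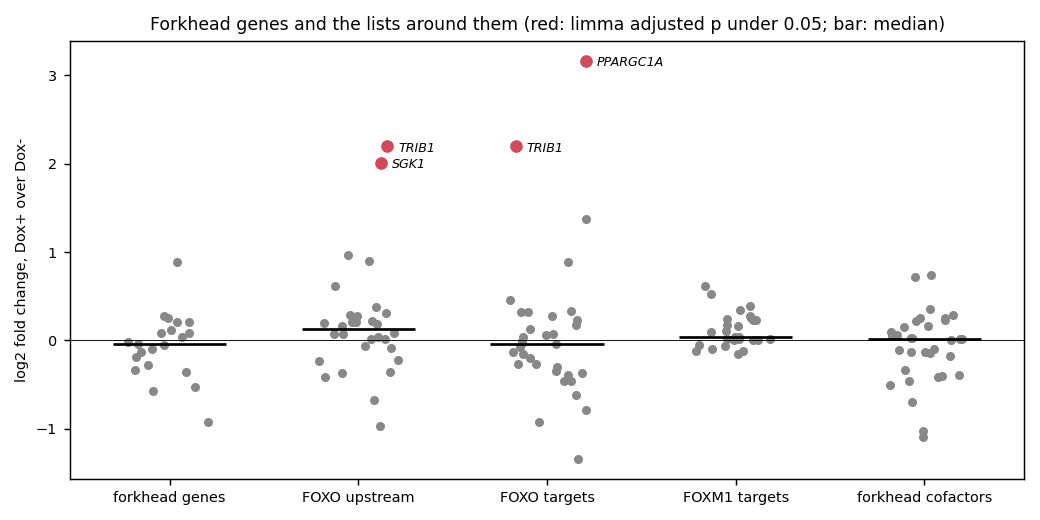
log2 fold change of Dox+ over Dox- for the 21 tested forkhead genes and for the tested members of each list (points; red where the limma adjusted p is under 0.05; horizontal bars are medians). PPARGC1A, TRIB1 and SGK1 are the called genes, and TRIB1 appears in both FOXO lists.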

How the data were processed

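The deposited signal table holds normalized counts of 27607 genes in 6 libraries, and the authors' comparison table holds a mean signal, log2 fold changes with standard errors, and p-values, per the file headers. The submitters' processing notes name FastQC 0.11.3, MultiQC 1.2, STAR 2.5.2b, Salmon, DESeq2, ARS-UCD1.2 and bosTau9, with no order. No source used here states the strand setting, so reads of overlapping antisense genes cannot be told apart, or whether the deposited log2 fold changes were shrunken. Every value above 0 was a whole multiple of the worth of 1 read (100% within 0.01 read), so reads were recovered.

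For the main result, limma 3.58.1 in R 4.3.3 (trend, two-sided) was fitted to log2(normalized count + 1) by group. It took in the 13180 genes whose mean over all libraries was 10 or more, and p-values were adjusted over all of them by Benjamini-Hochberg (threshold 0.05). edgeR 4.0.16 (quasi-likelihood) and DESeq2 1.42.0 were run on recovered reads. The fits were tested on simulated data. Deviations from the group mean correlated at 0.65, 0.44 and 0.21 for the libraries numbered 1, 2 and 3, all above 0.1. By this cut, set beforehand, the numbers were taken to pair the libraries, and fits with the number as a block are given too. Of the pairs with unlike numbers, Dox- 3 with Dox+ 2 also passed the cut, at 0.18, and the others were below 0. The cut alone therefore does not set the pairing of number 3 apart, and results that use the numbers depend on it. No pair of libraries of a group agreed within sampling noise.

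Members and lists were chosen with earlier results of these data known. Every member is counted, and from each list the called genes and the 3 next by p were to be named; a few of these genes are not reported here. The test of the library number was chosen after seeing the data. RefSeq's ARS-UCD2.0 gene table served for gene order only.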

Additional observations from a re-analysis of the deposited data

How the results depend on the processing

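With 3 libraries a group, the 95% intervals of the tested members were 0.40 to 1.61 wide on each side of the log2 fold change, and the shallowest library had 20063379 reads. Under the 21 alternatives the count of forkhead genes called stayed at 0, except that DESeq2 with the replicate block called 1 higher. The cause was not tested. Beside the calls given with the results above, the block changed no other limma call of a forkhead gene or of a named list gene.

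Over all genes, 332 were higher and 47 lower. DESeq2 gave 542 and 159, limma with the block 640 and 218, edgeR with the block 591 and 190, and DESeq2 with the block 743 and 306; leaving out a library or both libraries of a number gave 139 to 934 and 9 to 537. FOXO upstream genes called lower numbered 1 in DESeq2 with the block; leave-outs gave 1 to 3 higher and 0 to 4 lower. FOXO targets called higher numbered 1 in edgeR, 4 in DESeq2, 4 in limma with the block and 4 in DESeq2 with the block; those called lower numbered 1 in DESeq2, 1 in limma with the block, 1 in edgeR with the block and 2 in DESeq2 with the block. For these targets leave-outs gave 0 to 5 higher and 0 to 5 lower. FOXM1 targets called higher were 0 to 1 over the leave-outs. Of the cofactors, 1 was called lower by limma, edgeR and DESeq2, each with the block, 1 was called higher by DESeq2 with the block, and leave-outs gave 0 to 3 lower.

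The sign of the log2 fold change turned for 13 of the 21 tested members under some alternative and for 8 under none (FOXA3, FOXD2, FOXF1, FOXJ2, FOXK2, FOXO6, FOXP1 and FOXP4). None of the 13 was called. Leave-outs moved FOXC2 between -0.69 and 0.28, FOXH1 between -0.69 and 0.29, FOXJ3 between -0.15 and 0.67, FOXK1 between -0.29 and 0.032, FOXM1 between -0.31 and 0.26, FOXN2 between -0.54 and 0.78 and FOXN3 between -0.075 and 0.39. They moved FOXO1 between -0.36 and 0.18, FOXO3 between -0.31 and 0.63, FOXO4 between -0.071 and 0.25, FOXP2 between -0.025 and 0.11, FOXP3 between -0.79 and 0.084 and FOXS1 between -0.51 and 0.69. FOXS1, -0.02 in limma, was also 0.015 with a pseudocount of 5, 0.23 in edgeR, 0.23 in DESeq2, 0.087 in edgeR with the block and 0.041 in DESeq2 with the block.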
